A study of Mus musculus with 2 samples.

Results

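The 9 genes described here encode transcription factors of the epidermis: Ovol1, Elf3, Ehf, Klf4, Grhl1, Grhl2, Grhl3, Trp63 and Tfap2c. A gene was taken through the probe sets that the array's annotation assigns to its symbol alone, which gave 9 probe sets, 1 for each gene, among the 20823 genes with a restored value of their own. They were followed in 2 three-dimensional murine skin models at day 7, each grown from the keratinocytes and fibroblasts of adult untreated mice. 1 model carried cells of an Itih5 knockout mouse and the other cells of a wildtype control. Each was read on 1 array. Keratinocytes and fibroblasts had been passaged serially before use and no longer needed a collagen coating, so the models stand for long-cultured cells, and the number of mice behind each is not stated. With 1 array for each genotype there is no replicate error. No p-value was computed, and every difference below compares 2 models, not 2 genotypes.

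In the epidermis, basal keratinocytes divide on the basement membrane, then leave it and pass through spinous and granular stages to the cornified layer. Trp63 (p63) and the AP-2 factors establish and maintain the keratinocyte state from the basal layer up. Ovol1, Klf4, the epithelial ETS factors Elf3 and Ehf, and the grainyhead-like factors Grhl1 and Grhl3 act as cells leave the basal layer and build the cornified envelope, the desmosomes and the permeability barrier. Grhl2 maintains epithelial junctions more broadly.

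Each value is a linear-scale intensity of a probe set. Most had lost their decimal point in the deposited table, so the point had to be put back, and for some values more than 1 place was possible. A probe set is called decided where 1 pair of places, for the knockout and the wildtype value, had a probability of at least 0.95. A gene counted as expressed where the higher of its values reached 46.5, the median intensity. The 5th percentile of the decided values was near 21.4 on both arrays and is called background below. No background was measured. Itih5 itself read 30.4 in the knockout model against 29.8 in the wildtype, under the threshold in both. Since the removed part of the gene is not given, its probe set checks neither label. The column medians were 46.3 in the knockout model against 46.7 in the wildtype.

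All 7 decided members read lower in the knockout model, 5 of them by at least 2-fold and none higher. The lower direction was found in 45.8% of the 12727 expressed genes, a difference of at least 2-fold downward in 3.31% and upward in 3.83%. The same 5 genes, Grhl3, Ovol1, Elf3, Klf4 and Grhl1, were also at least 3-fold lower, as were 1.43% of expressed genes. The decided members had a median log2 difference (knockout minus wildtype) of -1.90, against 0.04 over all expressed genes. Ehf and Trp63 were undecided, and they too read lower at their likeliest places. Members were chosen with earlier results of these arrays known, so these counts describe the 9 genes and do not test them.

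**Figure D1:**
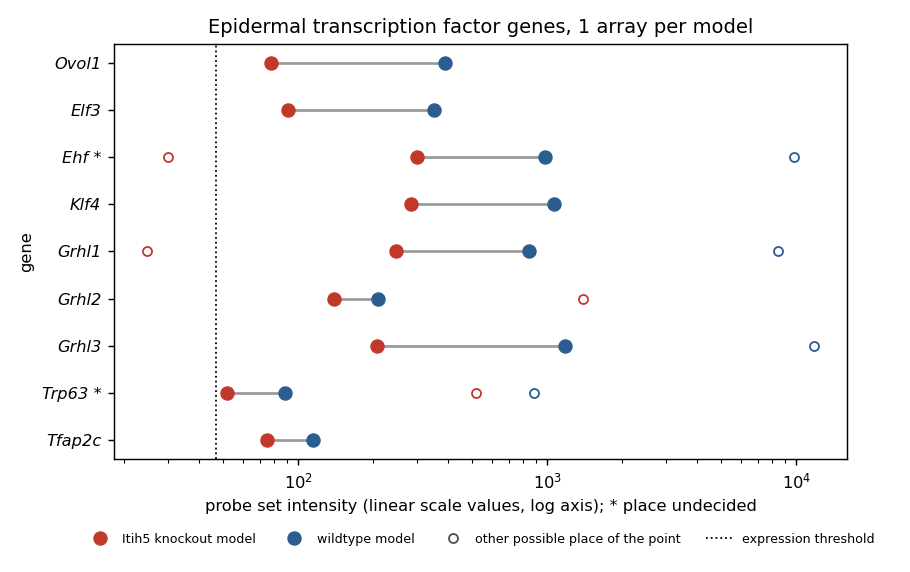
Probe set intensity (log axis) of each of the 9 genes in the knockout model (red) and the wildtype model (blue), 1 array each. Open circles are the other possible places of the decimal point, and asterisks mark the undecided genes. The likeliest knockout value lies left of the wildtype value for all 9, with the widest gap for Grhl3 (207 against 1178) and the narrowest for Grhl2 (139 against 209).

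Promoter stretches are shown for 4 of the members that read at least 3-fold lower together. The table (assembly GRCm38.p6) held entries for 4 of the 9 genes. Each run is the 250 bases before the gene's start, 5′ to 3′ on the gene's own strand. They lie at chr1:135258473-135258722 on the minus strand (Elf3), chr4:55532476-55532725 on the minus strand (Klf4), chr12:24572037-24572286 on the plus strand (Grhl1, the first of its 2 listed starts) and chr4:135573633-135573882 on the minus strand (Grhl3). Capitals mark matches, on either strand, to the letters searched: AACCGGTT for grainyhead-like factors, CACCC for Krüppel-like factors, AGGAAG for epithelial ETS factors, GCCNNNGGC for AP-2, CCGTTA for Ovo-like factors and TATAAA for a TATA box.
Elf3: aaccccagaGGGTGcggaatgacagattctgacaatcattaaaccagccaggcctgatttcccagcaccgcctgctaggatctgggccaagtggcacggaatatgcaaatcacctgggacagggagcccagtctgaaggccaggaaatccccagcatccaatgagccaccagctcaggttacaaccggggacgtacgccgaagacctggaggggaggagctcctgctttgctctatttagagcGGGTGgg
Klf4: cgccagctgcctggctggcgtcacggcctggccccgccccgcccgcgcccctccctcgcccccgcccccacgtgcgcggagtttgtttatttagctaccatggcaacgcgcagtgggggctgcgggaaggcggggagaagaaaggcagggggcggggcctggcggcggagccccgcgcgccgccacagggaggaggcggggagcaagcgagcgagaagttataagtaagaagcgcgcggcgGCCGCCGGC
Grhl1: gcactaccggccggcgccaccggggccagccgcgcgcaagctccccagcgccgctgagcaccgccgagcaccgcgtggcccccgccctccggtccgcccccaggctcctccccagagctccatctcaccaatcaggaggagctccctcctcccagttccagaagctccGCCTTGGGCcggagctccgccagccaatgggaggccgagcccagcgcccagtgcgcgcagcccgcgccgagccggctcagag
Grhl3: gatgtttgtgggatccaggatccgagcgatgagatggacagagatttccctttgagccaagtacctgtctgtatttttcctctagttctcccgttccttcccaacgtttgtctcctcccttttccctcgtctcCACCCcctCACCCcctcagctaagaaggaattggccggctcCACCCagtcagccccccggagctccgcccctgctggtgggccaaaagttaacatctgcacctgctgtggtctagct

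The 4 stretches shared no single motif. CACCC or its reverse stood 3 times in the Grhl3 stretch and 2 times in that of Elf3, against at least 1 match in 52% of the 32851 promoter stretches of this length. The AP-2 letters occurred 1 time each in the Klf4 and Grhl1 stretches, and in 13.7% of all. AGGAAG (29.5% of all), CCGTTA (2.18%), TATAAA (12.4%) and AACCGGTT (0.116%) were found in none of the 4. No marked matches overlapped. The second listed start of Grhl1, not printed, differed from its first, with 2 CACCC matches, 1 AGGAAG match and none of the AP-2 letters. The stretches also differed in base composition. Klf4 held 32 CpG dinucleotides, more than 95.4% of all promoter stretches, and Grhl1 held 27, more than 91.4%. The second Grhl1 start held 0. Elf3 and Grhl3 held 8 each, more than 57%. A match is only a match of letters.

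Among the factors of the differentiating layers, Ovol1, a zinc finger repressor that helps keratinocytes leave the cell cycle, read 77.4 in the knockout model against 387 in the wildtype. That is a log2 difference of -2.32, or 5.01-fold lower, and only 87 of the 12727 expressed genes lay lower. Its point had 1 possible place on each array. Klf4, a zinc finger factor needed for the barrier of the skin, read 284 in the knockout model against 1062 in the wildtype. Its difference of -1.90 (3.74-fold lower) was also free of any choice of place.

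The epithelial ETS factors had near-equal differences at different certainty. Elf3, which activates genes of the cornified envelope, read 90.7 in the knockout model against 352 in the wildtype, which is a log2 difference of -1.95 (3.88-fold lower) with 1 possible place. Ehf, its close relative in stratified epithelia, most likely read 300.3 in the knockout model against 980.1 in the wildtype, a difference of -1.71. This pair had a probability of 0.934, under the limit, and so Ehf is undecided. A second pair, with the wildtype value at 9801, would place it 32.6-fold lower, and in the other 2 pairs the knockout value would be 30.0, under the threshold. Ehf was therefore at least 3.26-fold lower under every possible pair, and it is the size of its difference that is undecided.

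The grainyhead-like genes did not differ to the same extent. Grhl3, the family member most closely tied to barrier formation and wound closure, read 207 in the knockout model against 1178 in the wildtype. Its log2 difference of -2.51 (5.70-fold lower) was the lowest of the 9 members, and 74 expressed genes lay lower. The wildtype value had a second possible place, with a probability of 0.00205, at which it would be 57.0-fold lower.

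Grhl1, which acts on desmosomal cadherin genes, read 247 in the knockout model against 843 in the wildtype, a difference of -1.77 (3.41-fold lower) at a probability of 0.963. A second pair, with the wildtype value at 8431, would place it 34.1-fold lower, and in the other 2 the knockout value would be 24.7, near background, so that 3.41-fold is the smallest difference its digits allow. Grhl2 read 139 in the knockout model against 209 in the wildtype, a difference of -0.59 (1.5-fold lower) at a probability of 0.985. Under its other pair, with a probability of 0.0151, the knockout value would be 1393 and Grhl2 would be 6.66-fold higher, so its direction rests on the place chosen. Within this family, Grhl1 and Grhl3 thus passed 2-fold under every possible pair and Grhl2 did not at its decided one.

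The factors of the basal and general keratinocyte state were lower by less than 2-fold. Tfap2c, an AP-2 factor, read 75.1 in the knockout model against 114 in the wildtype, a difference of -0.60 (1.52-fold lower) with 1 possible place. For Trp63, the p63 gene, the level was undecided but the difference nearly was not. The pair of 51.6 in the knockout model against 88.4 in the wildtype had a probability of 0.679, and the pair of 516 and 884 one of 0.308. Both give a log2 difference of -0.78 (1.71-fold lower), whose summed probability was 0.987. The remaining pairs would make Trp63 5.84-fold higher (0.0114) or 17.1-fold lower (0.00208). Trp63 was above the expression threshold on both arrays under every pair. How far above it is undecided, while its difference most likely lay close to those of Tfap2c and Grhl2.

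Taken by size, the 9 genes fell into 6 at -1.71 or below and 3 between -0.78 and -0.59, with none in between. The lower 6 had from 74 to 156 expressed genes below them, that is 0.581% to 1.23%. For the other 3 this was 666 (Trp63), 1022 (Tfap2c) and 1054 (Grhl2), or 5.23% to 8.28%. The gap separates 2 ranges on these 2 arrays only, without a measure of array-to-array error. The same 3 genes also had the lowest likeliest wildtype values of the 9, 88.4 (Trp63), 114 (Tfap2c) and 209 (Grhl2). The other 6 read from 352 to 1178 in the wildtype. Under its second likeliest pair, Trp63 would read 884 there. The part of signal level in the gap was not tested.

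**Figure D2:**
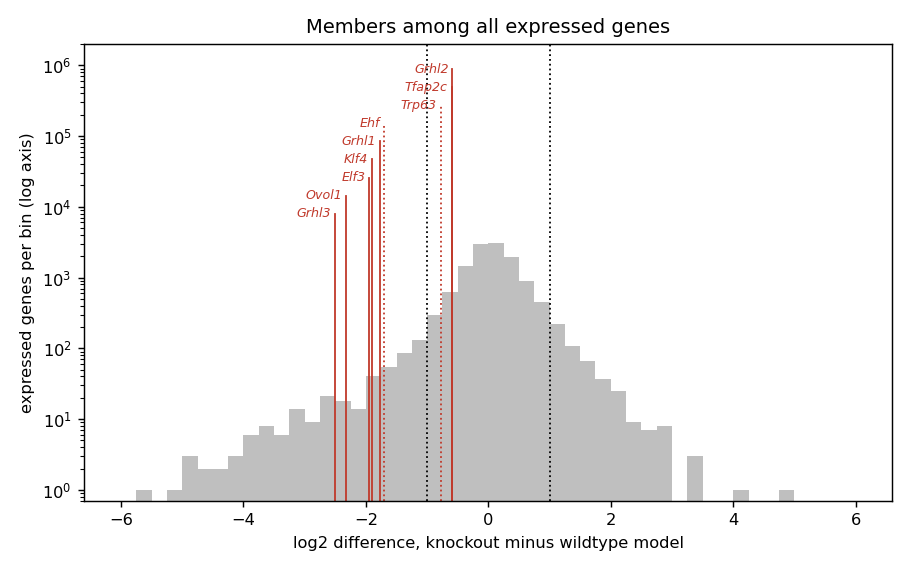
Number of expressed genes (log axis) in bins of the log2 difference, knockout minus wildtype model, over 12727 genes, with a red line at each of the 9 members (dotted where undecided, heights only separate the names) and black dotted lines at a 2-fold difference. Members from Grhl3 (-2.51) to Ehf (-1.71) lie in the lower tail, and Trp63 (-0.78), Tfap2c (-0.60) and Grhl2 (-0.59) lie between it and the centre.

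Keratinocyte markers moved with these genes. Of 14 listed, 12 were decided, all 12 were expressed and read lower in the knockout model, 5 of them by at least 2-fold, with a median of -0.93. Krt14, the basal keratin, read 4076 in the knockout model against 9538 in the wildtype, and the cadherin gene Cdh1 725 against 1428. The Cdh1 pair had a probability of 0.976, and its other possible pair would make Cdh1 higher. With a minimum probability of 0.99, the second Cdh1 probe set stood for the gene, at -0.52. Besides Krt14, the 5 included Dsg3 and Dsp, given further on, Krt10, the keratin of the layers above the basal one (333 against 850), and Krt15, a second basal keratin (63.2 against 127). Of 15 dermal fibroblast markers, all 12 that were decided and expressed read higher, with a median of 0.87. At least 2-fold higher were 3 of them, the collagen genes Col1a1 (2145 against 876) and Col6a2 (599 against 166) and the transcription factor gene Twist2. The summed intensity of the decided markers was 17085 in the knockout model against 37385 in the wildtype for keratinocytes, and 15244 against 8232 for fibroblasts. In such mixed models, fewer keratinocytes and less RNA for each keratinocyte cannot be told apart, and the part of this shift in the members' differences was not tested. The lowest keratinocyte marker was Dsg3 at -1.61, and 6 of the 9 members lay below it, whereas Trp63, Tfap2c and Grhl2 lay inside the markers' range of -1.61 to -0.30. Relative to the median of these markers, Grhl3 lay at -1.58, Ovol1 at -1.39, Elf3 at -1.02, Klf4 at -0.97, Grhl1 at -0.84 and Ehf at -0.78. Trp63 (0.15), Tfap2c (0.33) and Grhl2 (0.34) lay slightly above it. Proliferation genes differed by less than 2-fold in all 5 expressed cases, with 3 lower, 2 higher, a median of -0.37 and Mki67 at 449 against 655. Of 19 melanocyte, myeloid and endothelial markers, 9 lay below the threshold, among them Tyr, Cd207 and Pecam1, 1 was undecided and 9 were expressed. Of those expressed, 4 were at least 2-fold higher in the knockout and 0 at least 2-fold lower, against 3.83% and 3.31% of all expressed genes. They were the melanocyte genes Mlana (705 against 109) and Mitf (464 against 215), the myeloid gene Cd14 (551 against 240) and the endothelial receptor gene Kdr, above the threshold in the knockout model only (87.4 against 36.1). The part of these cell types in the members' differences was not tested.

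Relatives of the members by gene family mostly differed little. Of 32 listed relatives, 27 were decided, 23 of them expressed, and 1 of these was at least 2-fold lower and 0 higher, with a median of -0.20. That 1 was Tfap2a, the AP-2 factor of ectoderm, with 381 in the knockout model against 765 in the wildtype, 2.01-fold lower. It passed 2-fold by a narrow margin and no longer did so after median centring of the arrays or with a pseudocount of 16. Among the Krüppel-like genes, 0 of 11 expressed relatives of Klf4 were 2-fold apart. Klf6 read 2974 in the knockout model against 3444 in the wildtype and Klf10 277 against 425, while Klf15 was higher, at 182 against 93.0. Klf5, a factor of basal and spinous keratinocytes, and Klf3 were undecided. Their likeliest differences were -1.23 and -1.15, but other places would turn both directions.

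Ovol2, the epithelial paralogue of Ovol1, read 65.6 in the knockout model against 68.8 in the wildtype, close to equal. Both values lay not far above the threshold of 46.5. Klf1 (45.7 against 47.6), Klf2 (63.8 against 61.1), Klf14 (59.5 against 68.0) and Tfap2e (64.9 on both arrays) also read low. At such levels a small difference says little. The broadly expressed ETS genes Elf1 (602 against 764), Elf2 (236 against 194) and Elf4 (224 against 168) were under 2-fold, as were the CP2 genes Ubp1 (516 against 462) and Tfcp2 (124 against 62.4), relatives of the grainyhead-like factors. Elf5, an epithelial ETS factor like Elf3 and Ehf, was above the threshold in the knockout model only, at 54.7 against 33.1. This pair had a probability of 0.954, and the other places would make Elf5 lower in the knockout model. Trp73, a relative of Trp63, was above the threshold in the wildtype model only, at 42.6 against 84.4. The 6 lowest members, with Ehf at its likeliest place, lay below every decided and expressed relative, the lowest of which was Tfap2a. At their likeliest places, the undecided Klf5 (-1.23) and Klf3 (-1.15) lay below Tfap2a but above these 6 members.

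**Figure D3:**
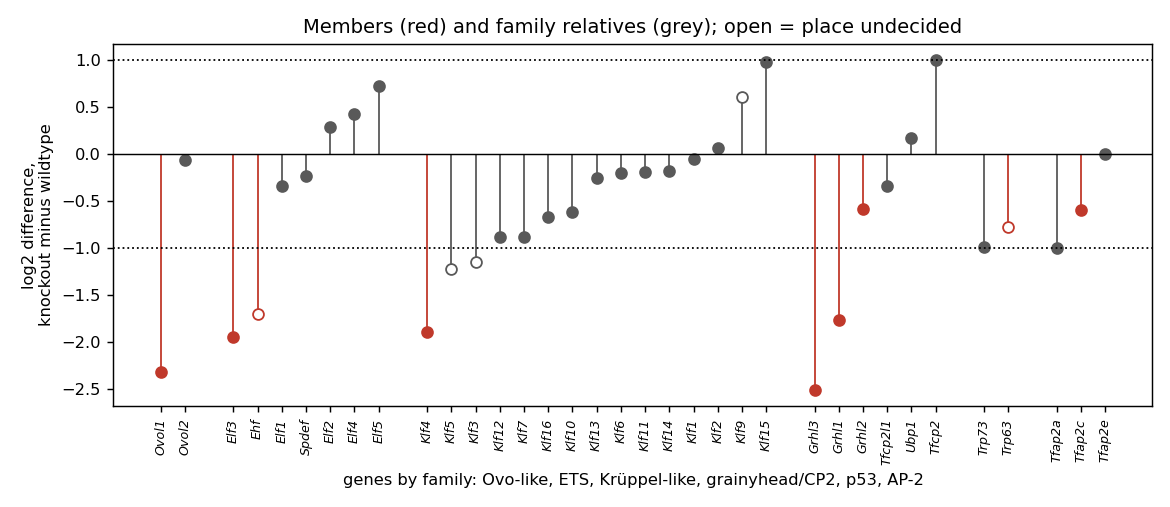
Log2 difference, knockout minus wildtype model, of the 9 members (red) and of their expressed or undecided relatives (grey), ordered within the Ovo-like, ETS, Krüppel-like, grainyhead and CP2, p53 and AP-2 families. Open circles are undecided genes at their likeliest place and dotted lines mark 2-fold. Ovol1 (-2.32) stands apart from Ovol2 (-0.07), and Klf4 (-1.90) from its 11 decided and expressed relatives, none of which reached 2-fold. Ovol2 and some of the Krüppel-like relatives read low on both arrays, where a small difference says little.

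Other transcription factors with a known role in epidermis were tallied beside them. Of 66 listed, 56 were decided, 53 of them expressed, and 7 of these (13.2%) were at least 2-fold lower and 1 (1.89%) higher, with a median of -0.12. Foxn1, which promotes keratinocyte and hair differentiation, read 75.0 in the knockout model against 184 in the wildtype, 2.45-fold lower. Bcl11b, a zinc finger factor of barrier formation, read 247 against 576, and Bnc1, the zinc finger gene basonuclin 1 of basal keratinocytes, 304 against 700. Cebpa, a factor of early differentiation, read 120 against 264, Casz1 73.7 against 148, and Id1, an inhibitor of helix-loop-helix factors, 85.2 against 192. Hopx, a homeodomain-only protein of differentiating keratinocytes, was under the threshold in the knockout model, at 45.9 against 160. The 1 gene at least 2-fold higher was Sim2, with 430 in the knockout model against 157 in the wildtype.

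Of the 53 expressed factors, 36 read lower in the knockout model and 17 higher, where 45.8% of all expressed genes read lower. Many regulators of the same programme read close to equal. Gata3 read 72.4 in the knockout model against 74.2 in the wildtype, Myc 761 against 776, Sox9 261 against 292 and Maf 175 against 183. Cebpb, a partner of Cebpa in differentiation, read higher without reaching 2-fold, at 449 against 263, and so did the Notch effector Rbpj, at 1056 against 587. Others read lower without reaching 2-fold, among them Foxq1 (131 against 241) and Vdr (218 against 383). Undecided here were Zfp750, Hes1, Jun, Dlx5 and Prdm1. Zfp750, a p63 target that induces Klf4, most likely read 669 in the knockout model against 1696 in the wildtype, with a probability of 0.937. Hes1 also most likely read lower (127 against 284). Prdm1 (207 against 70.9), Dlx5 (93.9 against 46.5) and, by little, Jun (46.4 against 40.9) most likely read higher. For each of these 5, other places would turn the direction. The lowest of the 53 was Hopx at -1.80, and Grhl3, Ovol1, Elf3 and Klf4 lay below it.

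Genes listed as targets of the members were lower most often in the grainyhead-like and late lists. For the grainyhead-like factors, 23 genes of junctions, envelope and barrier lipids were listed, of which 14 were decided and expressed. All 14 read lower, 8 of them (57.1%) by at least 2-fold, with a median of -1.39. The desmosomal cadherin genes Dsg1a and Dsg1b read 78.5 against 802 and 218 against 1183, 10.2-fold and 5.44-fold lower. The small proline-rich envelope gene Sprr2b read 1670 against 11038, and its relative Sprr1a read 515 in the knockout model against 5308 in the wildtype. The transglutaminase gene Tgm5 was 3.68-fold lower, the vesicle transport gene Rab25 2.72-fold, the epithelial splicing gene Esrp2 2.71-fold and Sptlc3, a gene of sphingolipid synthesis, 2.51-fold. Epcam, an epithelial adhesion molecule, was nearer to equal, with 954 against 1173. Tgm1, a transglutaminase gene known as a Grhl3 target, was undecided, with a likeliest pair of 539 and 2020 at a probability of 0.73. Its other possible pair would make it higher in the knockout model.

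The list for Trp63 and Tfap2c held 33 genes, many of them of the basal layer, of desmosomes and of adhesion to the basement membrane. It also held others, such as receptor and Notch ligand genes and keratins of simple epithelia. Of 27 expressed and decided, 9 (33.3%) were at least 2-fold lower and 1 (3.70%) higher, with a median of -0.56. The desmosomal genes Dsg3 (2150 against 6581), Dsp (2744 against 7469), Pkp1 (1399 against 3278) and Pkp3 (192 against 531) were among the lower ones. So were Krt14 and Bnc1, already given, Fras1, a basement membrane gene (51.8 against 126), and the Notch ligand gene Jag1 (872 against 1813). Integrin and laminin genes of the attachment to the basement membrane stayed under 2-fold where decided. Itga6 read 1132 against 2101, Lama3 556 against 895, Lamb3 305 against 448 and Itga3 571 against 567. Of the hemidesmosome genes, Col17a1 read 310 against 535 and Dst 469 against 322. The receptor genes Fgfr2 (818 against 715) and Egfr (1176 against 1014) were near equal. Krt8, a keratin of simple epithelia, was the 1 higher gene, with 276 in the knockout model against 109 in the wildtype.

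Late differentiation genes, listed for Klf4, Elf3, Ehf and Ovol1, numbered 34, with 26 decided and expressed. At least 2-fold lower were 21 of them (80.8%) and 0 were higher, with a median of -1.87. Rptn, an envelope protein gene, read 58.6 against 1743 (29.7-fold lower), the mucosal keratin Krt13 118 against 2666 (22.7-fold) and the envelope precursor Scel 117 against 1824 (15.6-fold). Loricrin, the main envelope protein of the granular layer, read 57.3 against 522, and the calcium-binding Calm4 61.5 against 1467. The desmocollin gene Dsc2 was 9.09-fold and the envelope gene Cnfn 5.89-fold lower, and Sprr3 read 26.7 against 588, near background in the knockout model. Under 2-fold were Ivl, the involucrin gene (143 against 141), Aloxe3, a lipoxygenase gene of the lipid barrier (572 against 574), Krt17 (3440 against 5925), Flg (38.8 against 55.7) and Krt1 (39.8 against 54.7). The last 2 read below the threshold in the knockout model and just above it in the wildtype. Ivl and Aloxe3 were each decided at a probability of 0.998, and their other possible places would make both far lower in the knockout model. The assignment of genes to factors rests on general knowledge, and binding was not measured, so these lists say nothing of which factor acts on which gene. Several of their genes also serve as keratinocyte markers above, 9 in the list for Trp63 and Tfap2c and 2 in each of the others.

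Transcription factors of mesenchymal cells went the other way or stayed near 0. Of 11 decided and expressed, 3 (27.3%) were higher by at least 2-fold in the knockout and 0 lower, with a median of 0.16. Zeb1, a repressor of epithelial genes that Grhl2 and the Ovo-like factors hold down, read 220 in the knockout model against 100 in the wildtype (2.20-fold higher). Twist2, a dermal fibroblast factor, read 495 against 160 (3.10-fold), and Tbx15 775 against 342 (2.27-fold). Snai2, which basal keratinocytes also express, read 2019 against 2205, and Snai1 60.0 against 53.6. Zeb1 and Twist2 are expressed by fibroblasts, whose markers read higher as given above, and the part of that shift in these values was not tested.

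**Figure D4:**
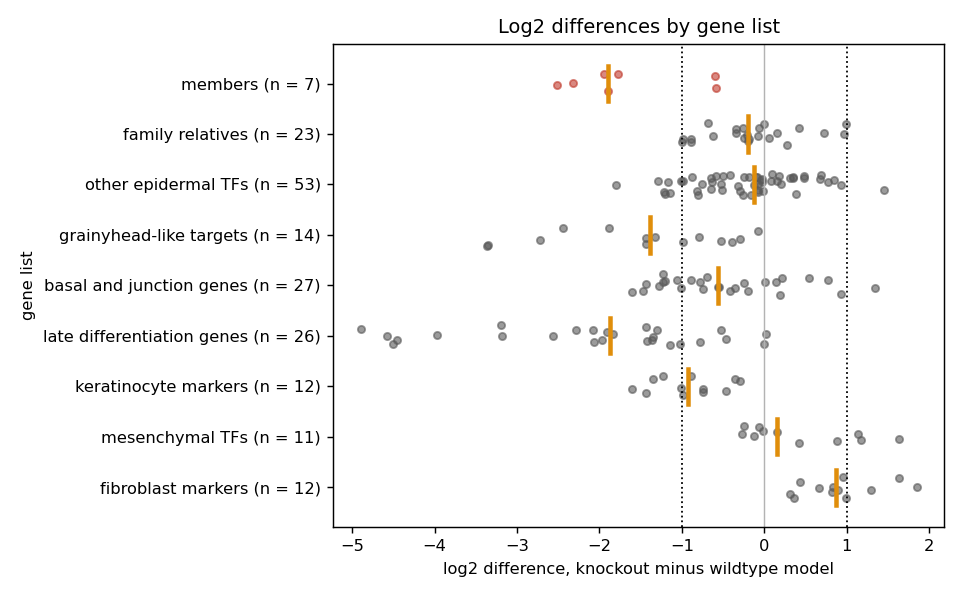
Log2 difference, knockout minus wildtype model, of each decided and expressed gene, by list, with the list's median as an orange bar and dotted lines at 2-fold. Members (median -1.90) and late differentiation genes (-1.87) lie lowest, keratinocyte markers at -0.93, family relatives (-0.20) and other epidermal factors (-0.12) near 0, and fibroblast markers at 0.87.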

How the data were processed

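Per the labels' protocols, total RNA was amplified to sense-strand cDNA (WT Expression Kit) and biotin-labelled for an Affymetrix array, 1 array for each model. The table deposited by the authors holds 1 intensity for each probe set and array, on a linear scale. How probes were summarised and arrays normalized is not stated in the labels. The decimal point was missing from 67457 of 67586 values. A place was possible where the number had at least 3 decimals, was the shortest form of a single-precision number, was 2 raised to a single-precision exponent, and lay between 18 and 20000. Both arrays had a single possible place for 21121 of 33793 probe sets. For the others, pairs of places were weighted by the joint distribution of mean level (bins of 0.25 log2) and absolute difference (bins of 0.1 log2), learnt in 25 rounds of expectation maximisation, and kept at a probability of at least 0.95. This decided 31872 probe sets (94.3%). By these probabilities, 45.1 of them would be wrongly placed, and 1921 undecided ones enter no count. On simulated data, few decided probe sets were misplaced, but among those with a true difference of about a factor of 10 or more, misplacement was common.

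Where a gene had more than 1 decided probe set, that of highest mean level stood for it, and the 1814 probe sets annotated to more than 1 symbol were set aside. The arrays were not normalized further, and each difference is log2 of the knockout intensity minus log2 of the wildtype one. Folds are given where both values reached the expression threshold. The single array for each group limits the precision. The members and gene lists were chosen with earlier results of these data known. Named are all members and the genes of the family, regulator, target and mesenchymal lists at least 2-fold apart (up to 8 a list). Cell type markers, neighbours and examples under 2-fold were chosen after their values were seen. Computation used Python 3.11.15 with numpy 2.4.6 and pandas 2.3.3.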

Additional observations from a re-analysis of the deposited data

How the results depend on the processing

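The members' differences depended little on the settings tried. Over those that gave a value, Grhl3 lay between -2.54 and -2.42, Ovol1 between -2.34 and -2.11, Elf3 between -1.99 and -1.78, Klf4 between -1.93 and -1.84, Grhl1 between -1.81 and -1.71, Grhl2 between -0.63 and -0.54 and Tfap2c between -0.61 and -0.51. All 61 values under alternatives, the few for Ehf and Trp63 included, kept their direction, and none moved by over 1.5 times. Each member had 1 probe set, so only median centring, quantile normalization and the pseudocount could change its value at a given place. Other settings could change it only through another place, so much of this agreement was by construction. With 1 possible place only, 3 of 4 members were at least 2-fold lower, against 3.49% of expressed genes. With every likeliest place this was 6 of 9, against 4.44%. With wider bins, where Ehf reached a probability of 0.965, it was 6 of 8, against 3.28%. The wider bins and a weight for the spacing of exponents were chosen after seeing the data. Of 182 counts under alternatives 22 moved by over 1.5 times, by construction of the threshold or the number of genes where either changed. For family relatives (1 lower, 0 higher), median centring gave 0 lower and 1 higher, the pseudocount of 16 gave 0 lower and every likeliest place 3 lower. The 1.5-fold threshold gave 6 lower and 3 higher relatives and the 3-fold threshold 0 lower. Over all expressed genes, 8.32% were lower and 11.6% higher by at least 1.5-fold, and 1.43% and 1.01% by at least 3-fold. For other epidermal factors (7 lower, 1 higher), 1 possible place gave 0 higher, every likeliest place 3 higher, the 1.5-fold threshold 15 lower and 6 higher, and the 3-fold threshold 1 lower and 0 higher. For the Trp63 and Tfap2c list (9 lower, 1 higher), a minimum probability of 0.99 and 1 possible place each gave 0 higher, the 1.5-fold threshold 3 higher and the 3-fold threshold 1 lower and 0 higher. The 3-fold threshold also left 5 of the 8 lower grainyhead-like targets and 1 of the 3 higher mesenchymal factors, and every likeliest place gave 1 higher late gene, against 0. Among 1716 values of other genes, 1 moved by over 1.5 times and the direction of 0 called ones turned. No paired analysis was possible because there is only 1 array for each genotype, so no sample could be left out either. Differences of genes at low intensity, not only of those near 21.4, can be compressed, and undecided genes are missing from the counts.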

Other observations

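The genes next to the members on their chromosomes, taken from the RefSeq order of protein-coding genes, mostly differed by less than 2-fold. Of 18 neighbours, 13 were decided and expressed, with a median of -0.34. Of these, 9 read lower and 4 higher in the knockout model, and 2 (15.4%) were at least 2-fold lower, against 3.31% of all expressed genes. On either side of Ovol1, the gene 1700020D05Rik read 60.7 in the knockout model against 47.8 in the wildtype and Ap5b1 79.4 against 72.1. Rnpep, beside Elf3, read 428 against 541. Beside Grhl1, Taf1b read 229.8 against 349.7 and Klf11 117 against 135, and beside Grhl3, Stpg1 read 39.2 against 52.9 and Ifnlr1 57.6 against 77.0. Fam209, beside Tfap2c, read 42.2 against 47.8. Ehf lies between Apip, with 130 against 98.5, and Elf5, with 54.7 against 33.1. At the likeliest places, the ETS genes Ehf and Elf5 thus read in opposite directions. Elf5 was decided at a probability of 0.954 only, and its other places would make it lower too.

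The 2 neighbours at least 2-fold lower lay beside members that were themselves under 2-fold. Tprg, the gene next to Trp63, read 174 in the knockout model against 2006 in the wildtype, with a log2 difference of -3.53 beside -0.78 for Trp63. Bmp7, a secreted bone morphogenetic protein gene next to Tfap2c, read 131 against 419, a difference of -1.67, against -0.60 for Tfap2c. P3h2, on the other side of Trp63, read 85.0 against 161. Both neighbours were singled out after their values were seen.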
